A study of Mus musculus with 6 samples.

Results

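A set of 6 genes of neurotransmitter storage and synthesis was followed in neurons and glia of mouse brain lesions driven by Foxr2. The members were taken by gene symbol from the gene lists of the libraries called Foxr2 p53LOF (labelled Foxr2 overexpression and p53 LoF) and Foxr2 alone (labelled Foxr2 overexpression), and all 6 were found among 32298 features: Slc17a6, Slc17a7, Slc17a8, Slc32a1, Gad1 and Gad2. The rule itself uses no measured value, but the set was proposed with earlier results of these data known. The study introduced Foxr2 into the ganglionic eminences of embryonic C57BL/6J mice by in utero electroporation, with integrating piggyBac vectors in which the ubiquitous CAG promoter drives Foxr2 and, from a separate vector, the luciferase reporter Akaluc, each with GFP. In Foxr2 p53LOF animals a plasmid with Cas9 and a guide against Trp53 was added, giving tumors in the striatum, whereas Foxr2 alone gave lesions of cortex or striatum that were not proliferating. Both genotypes carry Foxr2 overexpression, and no library without it was analysed here. Each tissue holds electroporated cells beside host cells that never took up a vector. The labels give no age. Nuclei from frozen brain were profiled by single-nucleus RNA-seq and ATAC-seq together (Multiome), with 1 library of Foxr2 p53LOF and 2 of Foxr2 alone. The RNA and ATAC counts of the second Foxr2 alone library were not analysed here, and only its peak list was used.

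Glutamate and GABA are the main fast excitatory and inhibitory transmitters of the brain. Slc17a6 (VGLUT2), Slc17a7 (VGLUT1) and Slc17a8 (VGLUT3) load glutamate into synaptic vesicles. VGLUT2 is known mainly from neurons of thalamus, hypothalamus and brainstem, VGLUT1 from neurons of the cortex and hippocampus, and VGLUT3 from neurons that also release another transmitter. Gad1 (GAD67) and Gad2 (GAD65) make GABA from glutamate, and Slc32a1 (VGAT) loads GABA and glycine into vesicles. Gad1 and Gad2 are markers of inhibitory neurons, and Gad1 is also known from oligodendrocyte precursors.

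The start regions of the members differ in base composition and in short motifs. All 8 windows of 300 bases that RefSeq gives for the 6 genes (GRCm38, 250 bases before to 50 after the start site, Slc17a6 and Slc17a8 with 2 windows each) were searched on both strands for TAATTA (the homeobox core), CAGCTG (an E-box), GGAAGT (an ETS core, ACTTCC on the other strand) and TGTTTA (a forkhead core, TAAACA on the other strand). These occur in 5.29%, 16.3%, 23.8% and 13.4% of the 32851 mouse windows in that set. The windows of Gad2, Slc17a7, upstream Slc17a6 and downstream Slc17a8 are printed because the results turn on Gad2 in glia, on the exchange of VGLUT1 for VGLUT2 between the libraries, and on a glial peak at Slc17a8. Capitals mark motif matches. Gad2 lies at chr2:22622077-22622376 on the plus strand, Slc17a6 at chr7:51621580-51621879 on the plus strand, Slc17a7 at chr7:45163671-45163970 on the plus strand and Slc17a8 at chr10:89599766-89600065 on the minus strand.
Gad2: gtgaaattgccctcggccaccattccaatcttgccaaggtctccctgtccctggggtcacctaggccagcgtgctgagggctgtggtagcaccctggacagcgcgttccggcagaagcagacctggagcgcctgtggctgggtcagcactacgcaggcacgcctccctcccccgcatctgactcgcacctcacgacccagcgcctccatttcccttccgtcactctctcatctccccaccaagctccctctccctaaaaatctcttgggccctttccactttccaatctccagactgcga
Slc17a6: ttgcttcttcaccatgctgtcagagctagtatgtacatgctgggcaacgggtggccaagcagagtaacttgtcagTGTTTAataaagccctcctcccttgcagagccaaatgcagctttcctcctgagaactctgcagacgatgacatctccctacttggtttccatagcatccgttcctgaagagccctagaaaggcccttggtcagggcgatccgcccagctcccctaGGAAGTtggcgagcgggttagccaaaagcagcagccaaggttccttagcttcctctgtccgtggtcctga
Slc17a7: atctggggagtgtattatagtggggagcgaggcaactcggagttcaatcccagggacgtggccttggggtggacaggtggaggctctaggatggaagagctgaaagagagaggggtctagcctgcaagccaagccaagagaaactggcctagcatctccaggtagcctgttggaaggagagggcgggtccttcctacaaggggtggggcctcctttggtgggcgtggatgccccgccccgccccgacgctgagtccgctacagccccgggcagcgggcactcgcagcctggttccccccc
Slc17a8: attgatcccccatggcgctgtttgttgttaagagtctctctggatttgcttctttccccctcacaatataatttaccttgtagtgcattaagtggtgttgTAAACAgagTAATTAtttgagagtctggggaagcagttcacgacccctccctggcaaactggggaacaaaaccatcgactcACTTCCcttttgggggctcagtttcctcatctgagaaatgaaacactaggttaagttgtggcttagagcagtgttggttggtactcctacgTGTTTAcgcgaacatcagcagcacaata
The Gad2 and Slc17a7 windows held no match, and neither did those of Slc32a1 and Gad1 or the upstream window of Slc17a8. The Slc17a6 window held GGAAGT at -20 and TGTTTA at -175 bases from the start site. The Slc17a8 window held TAATTA at -141, GGAAGT (read as ACTTCC) at -69, and the forkhead core at -150 and 22 bases from its start site. The second Slc17a6 window, downstream of the printed one, held TAATTA at -81 bases from its start site. The Gad2 window was 61.3% G and C with 14 CpG, and that of Slc17a7 63.7% with 13 CpG, against a median of 52.7% and 7 CpG over all windows. The downstream Slc17a8 window was poorer, at 45% and 6 CpG, and Slc17a6 stood near the median at 53.7% and 8 CpG.

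Filtering kept 8413 nuclei in the library of Foxr2 p53LOF and 8327 in that of Foxr2 alone, with a median of 5578 and 3632 RNA molecules (UMIs) per nucleus, and 95 kept nuclei carried a barcode found in both libraries. Nuclei were clustered and named from markers as neuron-like (2263 in Foxr2 p53LOF, 4249 in Foxr2 alone), oligodendrocyte-like (1526 and 3024), astrocyte-like (1229 and 429), COP-like, that is committed oligodendrocyte precursors (1272 and 1), OPC-like (95 and 169) and immune-like (1724 and 425). ATAC counts on the vectors were found in 26.9% of COP-like and 29.4% of astrocyte-like nuclei of Foxr2 p53LOF but in 0.663% of its neuron-like nuclei. They were found in 0.786% of its oligodendrocyte-like, 2.11% of its OPC-like and 1.45% of its immune-like nuclei. RNA of Foxr2 itself stood at 42.7 counts per 1000000 UMIs (CPM) with p53LOF and 3.63 CPM without, and Trp53 RNA, which does not report on small edits of the gene, was at 33.7 and 12.9 CPM. No peak on a vector was called in Foxr2 alone. Since 1 library with counts stood for each genotype, no difference between genotypes was tested. Intervals in brackets are 95% exact intervals and cover counting error only. Genotype, dissected region and library cannot be told apart. Immune-like nuclei, which should hold no transmitter genes, gave the background of free RNA.

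Slc17a6 was high in neuron-like nuclei of Foxr2 p53LOF and low over those of Foxr2 alone, and Slc17a7 was the reverse. The neuron-like nuclei came from different clusters in the libraries. In Foxr2 p53LOF 1849 lay in a cluster led by Htr2c and Hs3st4, 260 in one led by Sim1 and Cpne9 and 130 in one led by Slc6a3 and Th. In Foxr2 alone 2074 lay in a cluster led by Drd2 and Penk, and the rest mainly in 4 others. Of Slc17a6, 6408 UMIs were counted in Foxr2 p53LOF neurons, in 1410 nuclei, against 201 UMIs in 123 nuclei of Foxr2 alone. The log2 ratio was 5.38 [5.18, 5.59]. The Foxr2 p53LOF level was 20.8-fold that of its immune-like nuclei (12.2 CPM), whereas immune-like nuclei of Foxr2 alone gave only 1 UMI, too few to set a background for its neurons (6.08 CPM, a log2 ratio of 1.81 [-0.68, 7.12]). Glia-like nuclei of Foxr2 alone gave 3 UMIs, or 0.507 CPM [0.105, 1.48], well below its neurons. The Slc17a6 of Foxr2 alone was unevenly spread, with 4 neuron subclusters of 21 to 116 nuclei at 34.7 to 74.9 CPM, in 19.8% to 26.8% of their nuclei.

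Slc17a7 had the opposite distribution. In Foxr2 alone 5427 UMIs were counted in 1587 neuron-like nuclei, and in Foxr2 p53LOF 75 UMIs in 35 nuclei, for a log2 ratio of -5.79 [-6.14, -5.46]. Background was also unequal. The immune-like nuclei of Foxr2 alone held Slc17a7 at 29.4 CPM and those of Foxr2 p53LOF at 0.927 CPM, the same order as in neurons. Slc17a8 was found in few neurons of either library, with 178 UMIs (7.03 CPM) in 63 nuclei of Foxr2 p53LOF and 97 UMIs (2.93 CPM) in 23 nuclei of Foxr2 alone.

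**Figure D1:**
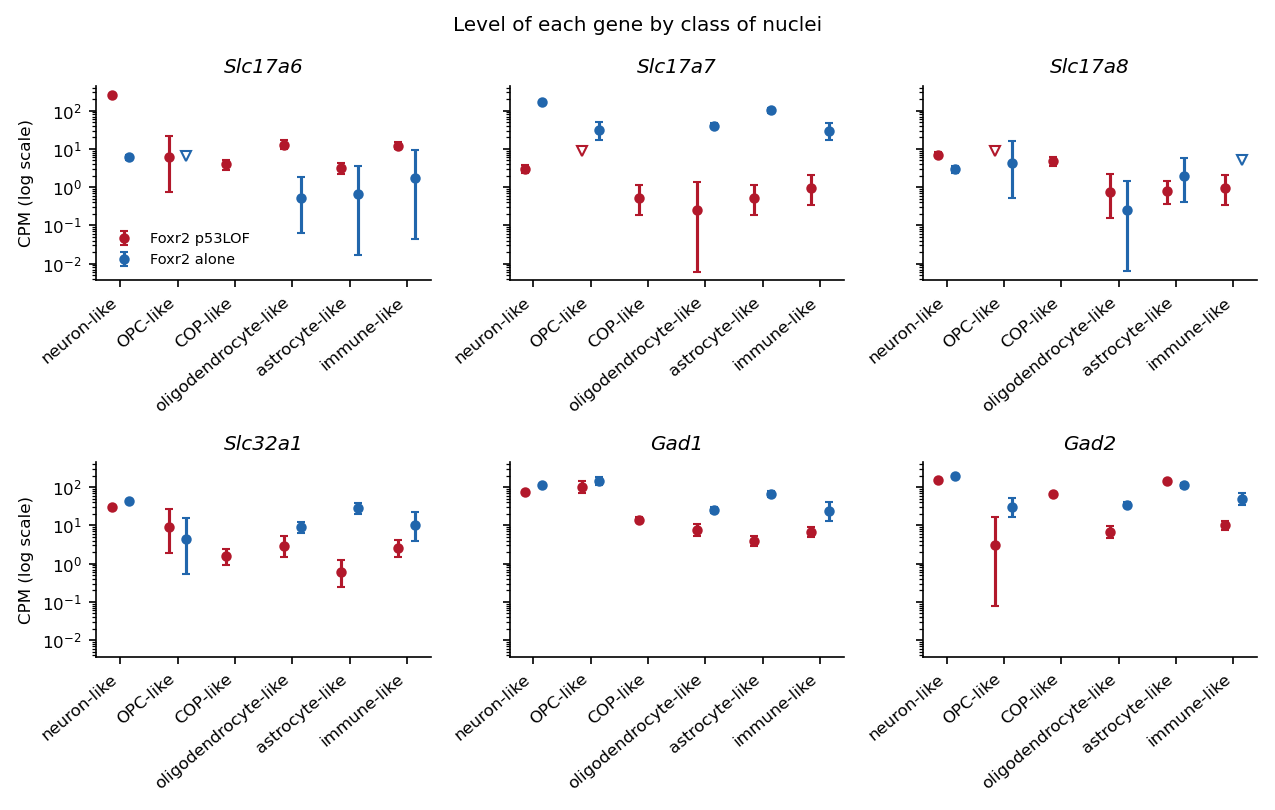
Level of each member in CPM (log axis) by class of nuclei, in Foxr2 p53LOF (red) and Foxr2 alone (blue). Points are summed counts of 1 library, bars are 95% exact Poisson intervals, and open triangles give the upper limit where no UMI was counted. Slc17a6 and Slc17a7 change places between the libraries in neuron-like nuclei, and Gad2 in Foxr2 p53LOF is as high in astrocyte-like nuclei (147.3 CPM) as in neurons (151.1 CPM).

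The 3 GABA genes were present in neurons of both libraries and somewhat lower in Foxr2 p53LOF. Gad2 stood at 151 CPM in the tumor and 194 CPM in the lesion of Foxr2 alone, which is -0.36 [-0.42, -0.30] as a log2 ratio. Gad1 stood at 74.9 and 114.6 CPM, a log2 ratio of -0.61 [-0.69, -0.53]. Slc32a1 was at 29.9 and 42.7 CPM, a log2 ratio of -0.51 [-0.64, -0.38]. These means over all neurons depend on which neurons each library held. Each of the 3 stood above immune-like nuclei, by 3.46 to 3.91 on the log2 scale in Foxr2 p53LOF and by 1.95 to 2.24 in Foxr2 alone, where the background was higher (Gad2 at 50.2 CPM, Gad1 at 24.2 CPM, Slc32a1 at 10.4 CPM). The antisense genes Gm14205 and Gad1os overlap Slc32a1 and Gad1, and whether counting used the strand was not stated in the sources used here.

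Of the 5 members with at least 10 CPM in either library, 1 was more than 2-fold higher in Foxr2 p53LOF neurons (Slc17a6) and 1 more than 2-fold lower (Slc17a7), on the log2(CPM + 1) scale. Over all 10601 genes of that level, 12.7% were that much higher and 18.1% that much lower, 30.8% in all. The members' count therefore lay near the background. The median log2 ratio was -0.50 over the 5 members and -0.05 over all genes.

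Within neurons the glutamate and GABA genes mostly marked different subclusters. In Foxr2 alone, the nuclei that met striatal projection markers were rich in GABA genes. The 1026 Adora2a striatal projection-like nuclei had Gad2 at 334 CPM, Gad1 at 166 CPM and Slc32a1 at 67.8 CPM, and the 1121 Drd1 striatal projection-like nuclei had 301, 126 and 67.8 CPM. Slc17a6 gave 1 UMI in each of these types. Slc17a7 was detected in 11.8% and 7.94% of their nuclei, against 3.53% of immune-like nuclei. The latter were shallower, with a median of 1133 UMIs against 6350 and 6856. In CPM (21.5 and 13.4), Slc17a7 lay below the 29.4 CPM of immune-like nuclei over each type as a whole. An Adora2a subcluster of 100 nuclei was the exception, with Slc17a7 at 75.1 CPM [57.7, 96.1] in 44 nuclei, beside 10.7 to 20.3 CPM in the other 3 Adora2a subclusters. The 901 cortical projection-like nuclei were the reverse, with Slc17a7 at 383 CPM in 94.8% of nuclei and Gad2 at 8.13 CPM, Gad1 at 6.55 CPM and Slc32a1 at 2.03 CPM.

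Gad1 was high in most interneuron-like nuclei of Foxr2 alone. In 253 MGE interneuron-like nuclei, named for the medial ganglionic eminence, Gad1 was at 399 CPM and Gad2 at 274 CPM. Their 3 subclusters were unequal, with Gad1 at 426 and 498 CPM in the larger ones but at 144.9 CPM [106.5, 192.7], below Gad2 at 178.9 CPM, in one of 48 nuclei. The latter lay within the 87.5 to 273.8 CPM of Gad1 over the 8 striatal subclusters. In 52 CGE interneuron-like nuclei, named for the caudal eminence, Gad1 and Gad2 were both high at 517 and 544 CPM. A small subcluster of 18 cholinergic-like nuclei carried Slc17a8. It held 76 of the 97 Slc17a8 UMIs of Foxr2 alone neurons, in 17 of 18 nuclei, at 341 CPM [268, 426]. No Slc32a1 UMI was counted there, which allows up to 13.4 CPM (3 UMIs), while Gad1 was at 98.6 CPM and Gad2 at 215 CPM. A further 16 of the 97 UMIs lay in a single nucleus of the CGE interneuron-like type.

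In Foxr2 p53LOF only 2 types of neuron met their markers, and both were low in GABA genes. The 269 thalamic-like nuclei had Slc17a6 at 392 CPM in 94.1% of nuclei and Gad2 at 10.2 CPM, the CPM level of immune-like nuclei. Gad2 was detected in 4.83% of them, against 2.67% of immune-like nuclei, at a median depth of 9729 against 2720 UMIs. The 136 dopamine-like nuclei had Slc17a6 at 35.8 CPM [28.4, 44.5] in 40 nuclei, Gad2 at 6.63 CPM and 2 UMIs of Gad1. The other 1858 nuclei fell in 19 subclusters without a name. Among these, 2 subclusters led by Sim1 (151 and 91 nuclei) held Slc17a6 at 554 and 570 CPM with Gad1 at 0.777 and 3.18 CPM. A subcluster of 327 nuclei was the largest that was rich in GABA genes, with Gad2 at 474 CPM, Gad1 at 206 CPM, Slc32a1 at 97.0 CPM and Slc17a6 at 20.6 CPM. Slc17a7 was mainly in 1 subcluster of 16 nuclei (200.6 CPM in 14 nuclei), which held 47 of its 75 UMIs. Slc17a8 was highest in a subcluster of 172 nuclei, at 46.4 CPM, where 90 UMIs came from only 11 nuclei and Slc17a6 was at 297 CPM.

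**Figure D2:**
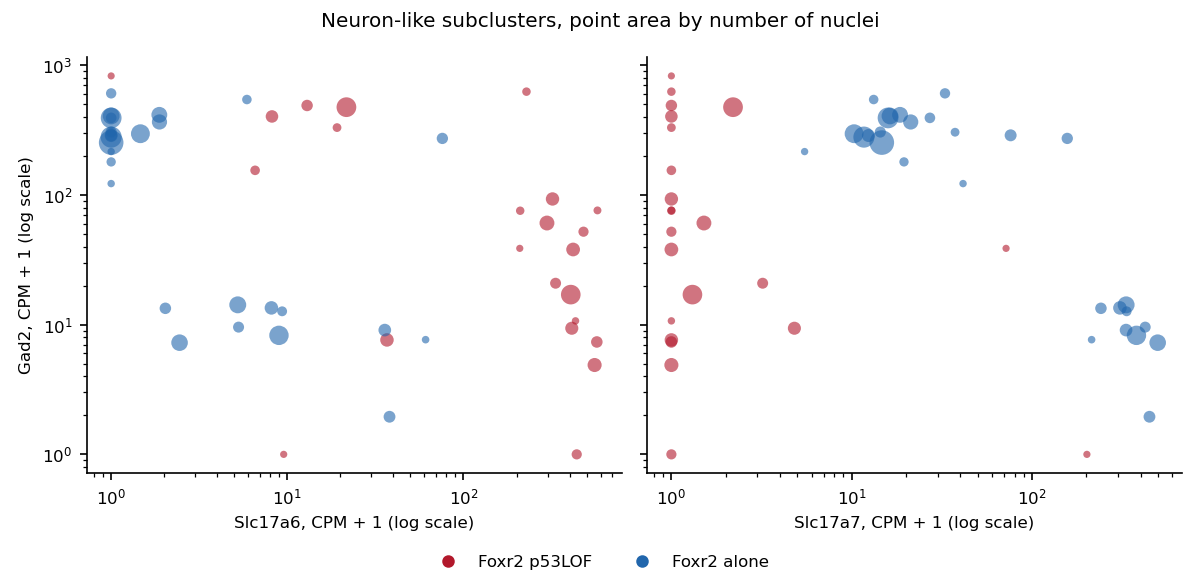
Gad2 against Slc17a6 (left) and against Slc17a7 (right) in subclusters of neuron-like nuclei, as CPM + 1 on log axes, with point area by number of nuclei, in Foxr2 p53LOF (red) and Foxr2 alone (blue). Most points lie along one axis or the other, and a Foxr2 p53LOF subcluster of 35 nuclei is high in both Slc17a6 (227 CPM) and Gad2 (625 CPM).

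Detection of both systems in the same nucleus was uncommon. To remove the difference in depth, each nucleus was thinned to 3000 UMIs, which left 2251 neurons in the library of Foxr2 p53LOF and 4068 in the other. In Foxr2 p53LOF 42.8% of nuclei held a glutamate carrier only and 26.5% GABA genes only, in Foxr2 alone 23.5% and 48.8%. Both kinds were found in 3.998% [3.23, 4.89] of Foxr2 p53LOF nuclei and 3.66% [3.11, 4.29] of Foxr2 alone nuclei. Without thinning, these shares were 11.3% and 10.6%, so the share depended strongly on depth. Immune-like nuclei of Foxr2 p53LOF held both in 0.417% of 720 nuclei. In Foxr2 alone only 19 immune-like nuclei reached 3000 UMIs, and 3 of them held both, too few to set a background. Thinned to 1000 UMIs, 0.712% [0.0863, 2.55] of 281 such nuclei held both, beside 0.544% of the neurons. At 3000 UMIs both were found in 11.9% of 168 astrocyte-like and 16.1% of 56 oligodendrocyte-like nuclei of Foxr2 alone. That left out 261 and 2968 shallower nuclei of these classes. Thinned to 1000 UMIs, both were found in 1.40% [0.516, 3.03] of 428 and 0.522% [0.261, 0.932] of 2108 nuclei. The share in Foxr2 alone neurons was below that of these glia at 3000 UMIs. At 1000 UMIs its interval [0.345, 0.815] overlapped theirs.

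**Figure D3:**
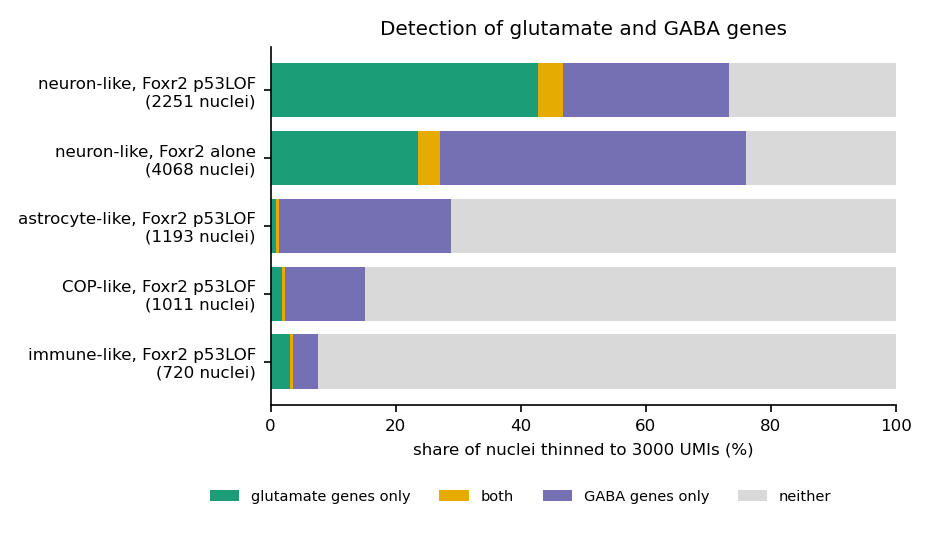
Share of nuclei (percent, thinned to 3000 UMIs) with glutamate carriers only, both, GABA genes only or neither, for 5 classes of nuclei. Glutamate carriers lead in Foxr2 p53LOF neurons (42.8%) and GABA genes in Foxr2 alone neurons (48.8%), while astrocyte-like nuclei of Foxr2 p53LOF show GABA genes without glutamate carriers (27.6%).

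Pairs within the GABA system were found in more nuclei than pairs across systems. In Foxr2 p53LOF neurons, 234 nuclei held Gad1 and Gad2, which were 69.4% of the nuclei with Gad1, and 131 held Slc32a1 and Gad2, 72.8% of those with Slc32a1. Across systems, Slc17a6 and Gad2 met in 55 nuclei, 5.37% of those with Slc17a6 and 10.04% of those with Gad2, and Slc17a6 and Slc32a1 in 19, 1.86% and 10.6%. In Foxr2 alone neurons, Gad1 and Gad2 met in 615 nuclei (60.7% of those with Gad1), Slc17a7 and Gad2 in 103 (9.71% of those with Slc17a7 and 6.43% of those with Gad2), and Slc17a6 with Slc32a1 in 0 of 4068, which allows a share with both UMIs of up to 0.0737% at this depth (3 nuclei). Of the few nuclei with Slc17a8, 10 of 19 in Foxr2 p53LOF (52.6%) and 7 of 14 in Foxr2 alone also held Gad2, beside 72.8% and 56.3% of the nuclei with Slc32a1. The carriers Slc17a6 and Slc17a7 met in 1 nucleus of Foxr2 p53LOF and in 26 of Foxr2 alone, where the latter were 46.4% of the nuclei with Slc17a6.

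A subcluster of 35 Foxr2 p53LOF nuclei led by Ebf3, Ebf2 and Ttc6 was the clearest place of co-detection. After thinning, 17 of 35 nuclei (48.6%) held both systems. Slc17a6 was at 227 CPM [178, 285], Slc32a1 at 123 CPM [87.6, 167] and Gad2 at 625 CPM [542, 717], while no UMI of Gad1 was counted, which allows up to 9.19 CPM (3 UMIs). Before thinning, 27 nuclei held Slc17a6, 25 held Slc32a1 and 33 held Gad2. In a second subcluster of 26 nuclei, Slc17a6 was at 575 CPM, Gad2 at 75.03 CPM, Slc32a1 at 41.7 CPM and Gad1 at 1 UMI, and 8 nuclei (30.8%) held both systems. The median depths of 9415 and 13113 UMIs lay near or above the 9987 of all Foxr2 p53LOF neurons, and whether any of these nuclei were undetected doublets was not tested. A subcluster could also be high in both systems with little co-detection. In 86 nuclei of Foxr2 alone without a name, Slc17a6 was at 74.9 CPM, Slc17a7 at 156 CPM and Gad2 at 272 CPM, yet of the 71 deep enough for thinning 28 held a glutamate carrier only, 30 GABA genes only and 2 both (2.82%). In the Adora2a subcluster of Foxr2 alone with Slc17a7, 15 of 98 thinned nuclei (15.3%) held both systems. In the 18 cholinergic-like nuclei of Foxr2 alone, 17 held Slc17a8, 16 Gad2 and 10 Gad1 before thinning, so that most held Slc17a8 and Gad2 together, and after thinning Slc17a8 met each of Gad1 and Gad2 in 3.

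Gad2 was also found in glia of the tumor, where the CPM levels of Gad1 and Slc32a1 in astrocyte-like nuclei were no higher than in immune-like nuclei. In the 1229 astrocyte-like nuclei of Foxr2 p53LOF, a cluster led by Abcc12, Egfr and Dbx2, 1706 UMIs of Gad2 were counted in 533 nuclei. The level was 147 CPM, close to that of neurons and 14.7-fold that of immune-like nuclei, a log2 ratio of 3.88 [3.52, 4.26]. Gad1 (45 UMIs, 3.89 CPM), Slc32a1 (7 UMIs, 0.604 CPM) and Slc17a6 (36 UMIs, 3.11 CPM) were each below the immune-like level in the same nuclei. Counted per nucleus instead of as CPM, Gad1 was above it, by 0.52 on the log2 scale. With called doublets kept, Gad2 of astrocyte-like nuclei was at 156 CPM but that of immune-like nuclei at 40.2 CPM, and the log2 ratio fell from 3.88 to 1.96. The COP-like nuclei held Gad2 at 66.9 CPM, with 782 UMIs in 229 nuclei, and Gad1 at 14.2 CPM, 2.09-fold the immune-like level. Oligodendrocyte-like nuclei were at background, with Gad2 at 6.87 CPM.

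The ratio of Gad2 to Gad1 set these glia apart from the neurons and the immune-like nuclei of the same library. Per kilobase of gene, the log2 ratio of Gad2 to Gad1 was 4.69 [4.27, 5.15] in astrocyte-like and 1.69 [1.44, 1.94] in COP-like nuclei of Foxr2 p53LOF. It was 0.46 [0.38, 0.54] in the neurons of the same library and 0.01 [-0.56, 0.60] in immune-like nuclei. In Foxr2 alone it was 0.21 in neurons, 0.19 in astrocyte-like nuclei and 0.50 in immune-like nuclei, with intervals of the last pair that include 0.

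**Figure D4:**
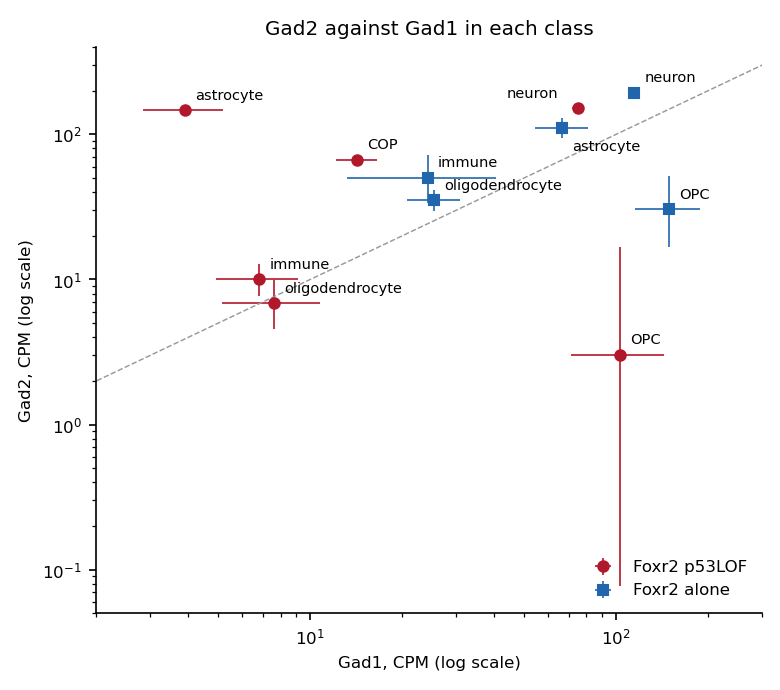
Gad2 against Gad1, both in CPM on log axes, in each class of nuclei of Foxr2 p53LOF (red circles) and Foxr2 alone (blue squares), with 95% exact Poisson intervals as bars and a dashed line of equal CPM. Astrocyte-like nuclei of Foxr2 p53LOF lie at high Gad2 (147.3 CPM) and low Gad1 (3.89 CPM), and OPC-like nuclei lie at high Gad1 and low Gad2.

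Neuron markers were at like levels in astrocyte-like nuclei with and without Gad2 in Foxr2 p53LOF. The 8 neuron markers summed to 547 CPM in astrocyte-like nuclei with a Gad2 UMI and to 561 CPM in those without, against 17424 CPM in neurons and 310 CPM in immune-like nuclei. In COP-like nuclei they summed to 774 CPM with a Gad2 UMI and 552 CPM without. None of the 8 was at 0 in these classes. The markers of the class itself were lower in nuclei with a Gad2 UMI. They summed to 1146 CPM with and 1540 CPM without in astrocyte-like nuclei, and to 2543 and 3881 CPM in COP-like nuclei. Nuclei with a Gad2 UMI were deeper, at a median of 9299 against 7278 UMIs in astrocyte-like and 11938 against 6901 in COP-like nuclei. The part of depth in these differences was not tested. The log2 ratio of Gad2 to the neuronal gene Snap25 was 0.96 in astrocyte-like and 0.53 in COP-like nuclei, and -1.96 in neurons and -1.48 in immune-like nuclei of the library. In Foxr2 alone this differed. Astrocyte-like nuclei with a Gad2 UMI held the neuron markers at 4067 CPM and those without at 1578 CPM, and the class also held Slc17a7 at 102.6 CPM, Gad1 at 66.5 CPM and Slc32a1 at 28.3 CPM beside Gad2 at 111 CPM. Astrocyte-like nuclei of Foxr2 alone with a Gad2 UMI were also deeper, at a median of 5428 against 2432 UMIs. The part of neuronal RNA in the Gad2 of those nuclei was not tested.

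Gad2 was at like levels in astrocyte-like nuclei, and in COP-like nuclei, whether or not a vector was seen in the nucleus. Astrocyte-like nuclei with and without a vector ATAC count held Gad2 at 147.2 and 147.3 CPM, and COP-like nuclei at 61.5 and 69.5 CPM. Over all glia-like nuclei, whose classes carried vector counts unequally, the levels were 103.3 CPM [96.1, 110.8] and 86.4 CPM [82.4, 90.6]. Vector fragments are sparse, so nuclei without a count may still hold a vector. Foxr2 RNA was at 60.95 CPM in astrocyte-like nuclei with a Gad2 UMI and 81.5 CPM in those without. Over all glia-like nuclei Gad2 was higher in Foxr2 p53LOF (91.0 against 54.3 CPM, a log2 ratio of 0.75 [0.58, 0.92]), and Gad1 (9.97 against 45.5 CPM), Slc32a1 (1.45 against 13.5 CPM) and Slc17a7 (0.470 against 55.8 CPM) were lower. The rise was not shared by all glia, since Gad2 was lower in oligodendrocyte-like (-2.35 [-2.99, -1.76]) and OPC-like nuclei (-3.34 [-8.74, -0.62]). In astrocyte-like nuclei the ratio was 0.41 [0.18, 0.64]. Background moved with these values. Immune-like nuclei were lower in Foxr2 p53LOF by log2 ratios of -1.83 for Gad1, -1.98 for Slc32a1, -4.99 for Slc17a7 and -2.32 for Gad2, and the glia-like levels of Foxr2 alone lay less than 2-fold above its immune-like 24.2, 10.4, 29.4 and 50.2 CPM. The part of free RNA in the lower values was not tested. Of the 4 members with at least 10 CPM, 0 were more than 2-fold higher and 3 more than 2-fold lower, where 22.5% and 20.6% of 11275 genes were.

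OPC-like nuclei had the converse pattern. Gad1 was at 103 CPM in Foxr2 p53LOF, with 34 UMIs in 25 of 95 nuclei, and Gad2 gave 1 UMI. In Foxr2 alone Gad1 was at 148 CPM, with 68 UMIs in 48 of 169 nuclei, and Gad2 at 30.6 CPM, below the immune-like 50.2 CPM. Gad1 stood above immune-like nuclei by 3.92 [3.23, 4.599] and 2.62 [1.77, 3.56] on the log2 scale. A ratio between libraries of -0.53 [-1.17, 0.09] did not separate them at this depth. In glia of Foxr2 p53LOF, Slc17a8 was the 1 glutamate carrier above background, at 4.71 CPM (55 UMIs in 23 nuclei) in COP-like nuclei, 2.35 [1.13, 3.85] above immune-like nuclei on the log2 scale.

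Promoter peaks were ATAC peaks within 1000 bp of the interval from a gene's first to its last start site, 21439 bases for Slc17a8. They were called once for each of the 6 members in Foxr2 p53LOF. Foxr2 alone replicate 1 had a peak at 5 of the 6, Slc17a8 being the exception, and replicate 2 at 3 of the 6: Slc32a1, Gad1 and Gad2. Foxr2 alone replicate 1 had 2 such peaks each at Slc17a7 and Slc32a1, whose counts were summed. Peaks were called separately in each library, and a peak is missed more easily where few nuclei are open. The share of all genes with such a peak was not computed for any library, so these counts of members are a description only. At 5 genes the Foxr2 p53LOF peak held a start site. The exception was Gad1, whose peak at chr2:70560752-70561619 had its centre at -857 bp from the nearest start site, upstream of it and within the annotated gene span. The Slc17a8 peak, chr10:89599075-89599992, lay at the downstream of the 2 start sites, over the window printed above. The Gad2 peak was chr2:22621911-22622813 and the Slc17a6 peak chr7:51621605-51622393, both over their printed windows.

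Accessibility was higher in neurons than in glia for Slc17a6 and Slc32a1, as was the RNA, and for Gad2 it was high in the glia that held its RNA. Scaled to 1000000 peak counts of the class (ATAC CPM) in Foxr2 p53LOF, the Slc17a6 peak held 24.4 [21.5, 27.8] in neurons and 1.72 [1.19, 2.42] in glia. The Slc32a1 peak held 20.5 in neurons and 3.23 in glia. In COP-like nuclei it held 4.82, 1.32 [0.36, 2.39] above immune-like nuclei on the log2 scale, where its RNA (1.54 CPM) was at -0.77 [-1.81, 0.28]. Counted per nucleus instead of as CPM, that RNA was at 0.52. The Gad2 peak held 18.1 [15.5, 20.9] in neurons, 17.9 [14.9, 21.3] in astrocyte-like, 11.3 [9.06, 13.9] in COP-like, 0.987 in oligodendrocyte-like and 0.813 in immune-like nuclei. The 95 OPC-like nuclei, with 1 UMI of Gad2, gave no count in the peak. In Foxr2 alone it held 18.9 in neurons and 5.201 [2.63, 10.1] in astrocyte-like nuclei. In Foxr2 p53LOF the Gad2 peak thus held more in astrocyte-like and COP-like than in oligodendrocyte-like nuclei by more than counting error. Vector counts were also more frequent in the former 2 classes. The intervals of neurons and astrocyte-like nuclei overlapped.

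Gad2 RNA and promoter counts also met in the same nuclei. Among astrocyte-like nuclei of Foxr2 p53LOF, 80 of 533 with a Gad2 UMI (15.01%) held a count in the Gad2 peak, and 41 of 696 without (5.89%). Nuclei with a Gad2 UMI had more ATAC counts (median 12097 against 9488), and as ATAC CPM the peak held 24.99 [19.99, 30.9] against 11.0 [7.96, 15.2]. In neurons of the library the shares were 15.3% and 2.58% for Slc17a6, 16.2% and 2.85% for Gad2, and 18.3% and 5.73% for Slc32a1. In Foxr2 alone neurons they were 24.3% and 3.49% for Slc17a7 and 16.2% and 7.07% for Gad2. For Gad1 in glia the intervals of nuclei with and without a UMI overlapped. The shares were 5.13% and 4.03% in astrocyte-like and 10.1% and 4.53% in COP-like nuclei of Foxr2 p53LOF. As ATAC CPM the peak held 11.3 and 7.46 in these COP-like nuclei. In OPC-like nuclei the shares were 1 of 25 and 4 of 70 in Foxr2 p53LOF and 4.17% and 6.61% in Foxr2 alone.

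For Gad1 the class totals of promoter and RNA parted in astrocyte-like nuclei, whereas both stood above immune-like nuclei in COP-like and OPC-like nuclei. The Gad1 peak held 7.25 [5.401, 9.54] ATAC CPM in astrocyte-like and 7.77 in COP-like nuclei of Foxr2 p53LOF, against 11.8 in neurons and 1.87 [1.01, 3.41] in immune-like nuclei, although Gad1 RNA of astrocyte-like nuclei, in CPM, was below background. In OPC-like nuclei it held 15.06 and 15.01 in the 2 libraries, from 9 and 22 counts. The Slc17a7 peak held 3.84 in neurons, 4.90 in glia and 3.74 in immune-like nuclei of Foxr2 p53LOF, where its RNA was at 2.96, 0.470 and 0.927 CPM. Its log2 ratios to immune-like nuclei, 0.04 [-0.75, 0.86] in neurons and 0.24 [-0.59, 1.083] in astrocyte-like nuclei, had intervals that include 0, and that of COP-like nuclei was 0.94 [0.22, 1.71]. In Foxr2 alone the peak that overlaps it held 10.4 in neurons, 1.97 in glia and 4.27 in immune-like nuclei, and the second peak, centred 1382 bp past the nearest start site, 8.13, 1.002 and 0.329. For Slc17a8 the peak and the RNA were both highest among glia in COP-like nuclei, and their class totals parted in neurons. No peak was called at the upstream start site in any library, so accessibility there was not measured. The Slc17a8 peak held 12.8 [10.5, 15.6] in COP-like, 5.62 in astrocyte-like, 4.71 in immune-like and 1.76 in neuron-like nuclei, although neurons held its RNA at 7.03 CPM against 4.71 CPM in COP-like nuclei. COP-like nuclei with and without a Slc17a8 UMI held a count in the peak at like rates, 2 of 23 (8.70%) and 93 of 1249 (7.45%), and the interval of the former reached from 1.07% to 28.0%. In neurons of Foxr2 p53LOF the counts were 3 of 63 (4.76%) and 16 of 2200 (0.727%), with overlapping intervals.

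**Figure D5:**
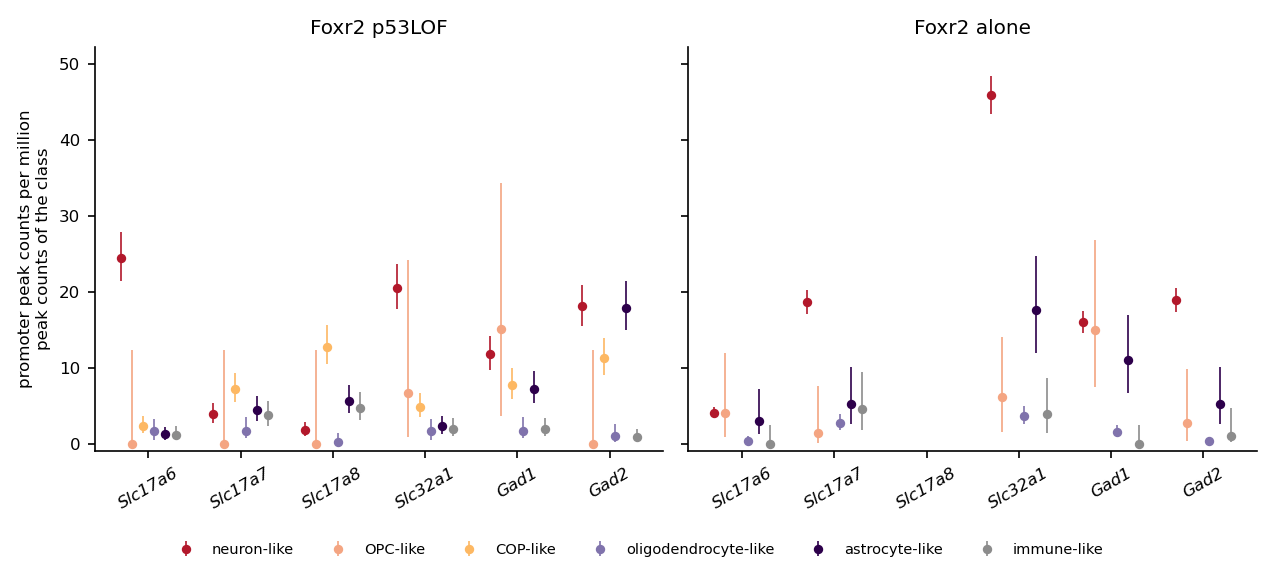
Counts in promoter peaks as ATAC CPM, that is scaled to 1000000 peak counts of each class, by gene and class of nuclei, in Foxr2 p53LOF (left) and Foxr2 alone (right), with 95% exact Poisson intervals computed on fragments. Slc17a8 had no peak in Foxr2 alone, and Gad2 in Foxr2 p53LOF is as open in astrocyte-like (17.9) as in neuron-like nuclei (18.1). Peak sets differ between the panels, so values are compared within a panel.

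Set against all promoters, 2 of 6 members in Foxr2 p53LOF were more than 2-fold more open in neurons than in glia (Slc17a6, Slc32a1) and 1 was more than 2-fold less open (Slc17a8), where 11.9% and 10.6% of 19100 genes were. In Foxr2 alone all 5 members with a peak were more open in neurons and 0 less open, where 22.9% and 15.1% of 18746 genes were. With minima of 1000 genes and 1000 fragments per nucleus, 3 of the 5 were. Over subclusters of neurons, promoter counts and RNA went together for most members, given as a description without a test. Pearson's r over 15 Foxr2 p53LOF subclusters, which share a library and differ in depth, was 0.94 for Slc17a6, 0.89 for Slc32a1, 0.88 for Gad2, 0.60 for Gad1, 0.32 for Slc17a8 and 0.03 for Slc17a7, whose RNA reached at most 3.81 CPM in them. Over 23 Foxr2 alone subclusters it was 0.95 for Slc32a1, 0.92 for Gad1, 0.89 for Gad2, 0.88 for Slc17a7 and 0.75 for Slc17a6.

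The wider pathway list of 34 genes of transmitter synthesis, uptake and storage had 24 with at least 10 CPM in neurons, of which 7 were more than 2-fold higher in Foxr2 p53LOF and 3 more than 2-fold lower. That is 41.7%, beside 30.8% of all genes, with a median log2 ratio of 0.27 against -0.05. Of those higher, 3 are monoamine genes that were also among the 10 leading genes of the cluster of 130 Foxr2 p53LOF nuclei led by Slc6a3 and Th, which held no Foxr2 alone nucleus. Slc18a2, which loads monoamines into vesicles, was at 148 against 10.1 CPM, Ddc, which makes dopamine and serotonin, at 114.8 against 2.54 CPM, and Th, the rate-limiting enzyme of dopamine synthesis, at 13.2 against 0.454 CPM. Of the glutamine and amino acid genes, Slc38a1, a glutamine transporter, was at 203.7 against 69.6 CPM, Gls2, a glutaminase, at 30.03 against 12.7 CPM, Slc6a9, a glycine transporter, at 14.9 against 3.69 CPM and Slc1a3, a glutamate transporter of astrocytes, at 18.7 against 8.495 CPM. Lower in Foxr2 p53LOF were Sv2b, a synaptic vesicle protein, at 83.3 against 273.5 CPM, Slc17a9, a nucleotide carrier of the same family as the VGLUTs, at 8.22 against 31.1 CPM, and Glul, glutamine synthetase, at 19.5 against 43.3 CPM.

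In glia-like nuclei 5 of 21 genes of the list with at least 10 CPM were more than 2-fold higher and 9 more than 2-fold lower (66.7%), against 43.2% of all genes. Among those higher, named after their values were seen, were Slc38a1 (236.5 against 19.6 CPM), Sv2c (68.9 against 9.30 CPM), Slc6a9 (49.7 against 22.5 CPM) and Glud1 (193.7 against 94.3 CPM). Among those lower, named likewise, were Ddc (13.98 against 250.7 CPM), Slc1a2 (133.6 against 1681 CPM), Sv2b (3.72 against 42.9 CPM), Slc17a9 (3.83 against 17.4 CPM) and Glul (125.6 against 428 CPM). Within the astrocyte-like class Slc1a2, Glul, Slc1a3 and Slc6a11, genes by which astrocytes clear transmitter, were lower in Foxr2 p53LOF. The glutamate transporter Slc1a2 was at 257 against 5852 CPM in those of Foxr2 alone, Glul at 46.2 against 678 CPM, and Slc1a3 at 1502 against 4250 CPM. The GABA transporter Slc6a11 was at 63.6 against 106 CPM, a change of less than 2-fold. The 228 Foxr2 p53LOF nuclei without a name, led by astrocyte and T-cell genes, lay outside this class. They held Slc1a2 at 2088 CPM, Glul at 387 CPM and Slc1a3 at 1229 CPM. Their Slc6a11, at 242 CPM, was above that of Foxr2 alone astrocyte-like nuclei. The astrocyte-like nuclei of the libraries came from different clusters, led by Egfr and Abcc12 in Foxr2 p53LOF and by Slc1a3 and Slc39a12 in Foxr2 alone, so kind of astrocyte and genotype cannot be told apart.

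Over 38 neuron subclusters of at least 50 nuclei in both libraries, the 3 GABA genes had like patterns, with Pearson's r of log2(CPM + 1) of 0.92 for Gad1 and Gad2, 0.93 for Slc32a1 and Gad2 and 0.92 for Slc32a1 and Gad1. The glutamate carriers were less alike, with -0.50 for Slc17a6 and Slc17a7, -0.53 for Slc17a7 and Slc17a8 and 0.43 for Slc17a6 and Slc17a8. Among 7354 other genes, the pattern of Gad2 was most like those of Gm14204 (0.90), Dlx6os1 (0.73) and Mpzl1 (0.72), and that of Gad1 most like Gm14204 (0.91), Dlx6os1 (0.77) and Dlx5 (0.72). Slc32a1 was most like Gm14204 (0.88), Nrxn3 (0.71) and Nipsnap2 (0.70). Slc17a7 was most like Tbr1, Ttc9b and Mef2c (each 0.91), and Slc17a6 most like Tmem163 (0.88), H2-K1 (0.87) and Bdnf (0.85). The closest to Slc17a8 were less alike: Grin2d (0.73), Stk32b (0.71) and B130024G19Rik (0.70). The subclusters share 2 libraries, and part of each r is the difference between them.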

How the data were processed

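Nuclei of 3 Multiome libraries were studied, described by 6 sample records. The authors aligned reads and called nuclei and ATAC peaks in each library with Cell Ranger ARC 2.0.0 at default settings, on mm10 extended by vector contigs. The deposited matrices hold raw UMI counts per gene and raw ATAC counts per peak, with no normalization. Here barcodes with at least 400 genes, at least 400 peak fragments, at most 5% mitochondrial UMIs and no more genes, UMIs and fragments than the upper limits the study set for each library were kept (8712 of 10379 in Foxr2 p53LOF, 8856 of 10096 in Foxr2 alone), and Scrublet in scanpy 1.11.5 marked 299 and 529 as doublets (3.43% and 5.97%), which were left out. The kept nuclei held 60676079 of 96929539 UMIs in Foxr2 p53LOF and 39655628 of 59719847 in Foxr2 alone. Clustering used 2000 variable genes, 30 principal components, 20 neighbours and Leiden at resolution 0.5 (leidenalg 0.10.2), and 1 for subclusters of neuron-like nuclei within each library. No batch integration was run.

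The share of a marker was its CPM in a cluster over its highest CPM in any cluster. A cluster was called X-like where the median share of the markers of X was at least 0.15 (0.2 for neuron subclusters). At least 3 markers had to reach a share of 20%, with no rival class above 70% of the score. Further rules on leading genes, low depth and markers of other kinds left some clusters without a name. This naming rule was set after the data were seen. Members, gene lists and alternatives were chosen with earlier results of these data known. The members were all named, with genes of the pathway list past 2-fold at 10 CPM in neurons, a few uptake genes in glia, and the 3 genes most alike to each member.

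The UMIs of all nuclei in a class were added up and given as CPM with exact Poisson 95% intervals, ratios with exact conditional intervals, and shares with Clopper-Pearson intervals (scipy 1.17.1). ATAC intervals were computed on fragments, as each fragment gives 2 counts. For shares of nuclei with glutamate carriers, GABA genes or both, and for pairs of members, nuclei were thinned to 3000 UMIs and shallower ones left out. Other shares of nuclei with a UMI were taken without thinning. A pseudocount of 1 CPM, or 0.1 for promoter values, was added before fold thresholds. With 1 library with counts per genotype, no test was run and no p-value is given. Whether nuclei came from 1 animal or a pool is not stated in the sources used here. PCR copies are removed by the UMIs, but intervals do not cover differences between animals. Alternatives were stricter filters, median-of-ratios scaling, doublets kept, Leiden resolution 1.0, UMIs per nucleus, thinning to 1000 UMIs or none, at least 2 UMIs for a class, and peaks within 3000 bp. The intervals of ratios and shares, the thinning and the 2-fold rule were tested on simulated data. Start windows and gene spans came from RefSeq and GENCODE on GRCm38, the assembly behind mm10. Values of some genes are not reported here.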

Additional observations from a re-analysis of the deposited data

Results flagged for a closer look

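Gad2 moved in opposite directions between the libraries in neurons and in glia-like nuclei summed over their classes. The ratio of Foxr2 p53LOF to Foxr2 alone was -0.36 [-0.42, -0.30] in neurons and 0.75 [0.58, 0.92] in glia on the log2 scale, and the difference was not tested. Gad2 of Foxr2 alone glia (54.3 CPM) lay close to that of its immune-like nuclei (50.2 CPM). The glia-like nuclei of Foxr2 p53LOF include 1272 COP-like nuclei, a class with 1 nucleus in Foxr2 alone. Oligodendrocyte-like nuclei were 1526 in Foxr2 p53LOF and 3024 in Foxr2 alone. Within classes, the Gad2 ratio was 0.41 [0.18, 0.64] in astrocyte-like, -2.35 in oligodendrocyte-like and -3.34 in OPC-like nuclei. The part of the mix of classes in the summed ratio was not tested.

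A cluster of 228 Foxr2 p53LOF nuclei without a name was part of no class compared in the report. Its leading genes included astrocyte genes (Etnppl, Gjb6) and T-cell genes (Themis, Cd3g, Gzmb). It held Slc17a6 at 32.8 CPM [22.3, 46.5], Gad1 at 19.0 CPM [11.3, 30.1] and Gad2 at 31.7 CPM [21.4, 45.3]. The immune-like nuclei of the library held 12.2, 6.80 and 10.0 CPM.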

How the results depend on the processing

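Shares of nuclei with both systems followed the depth. The share in Foxr2 p53LOF neurons (3.998%) was 0.840% after thinning to 1000 UMIs and 11.3% without thinning, and in Foxr2 alone neurons (3.66%) 0.544% and 10.6%, and 1.67% where at least 2 UMIs were asked of each system. Slc17a6 with Gad2 in Foxr2 p53LOF (2.44%) went to 0.486% and 7.65%, and Slc17a7 with Gad2 in Foxr2 alone (2.53%) to 0.236% and 7.60%. The log2 ratio of Gad2 in astrocyte-like over immune-like nuclei of Foxr2 p53LOF (3.88) was 5.202 per nucleus and 1.96 with doublets kept, when the immune-like class grew from 1724 to 1947 nuclei and its Gad2 from 10.0 to 40.2 CPM. That of COP-like nuclei (2.74) was then 0.66. The Gad1 ratio of the same astrocyte-like nuclei (-0.81) turned to 0.52 per nucleus. The Gad2 ratio of Foxr2 alone astrocyte-like nuclei (1.15) turned to -0.64 with doublets kept, against an immune-like class of only 9 nuclei. With minima of 1000 genes and 1000 fragments, 3 rather than 5 promoters of Foxr2 alone were more than 2-fold more open in neurons, and the doublet caller then marked 2 nuclei of that library, so doublets were in effect kept. The Slc17a7 promoter ratio in Foxr2 p53LOF, -0.35 on the log2 scale, was 0.61 with peaks within 3000 bp. Apart from these, 28 values that answer a comparison and 100 others stayed within set limits. The limit was the interval of the value or, for counts without an interval, a set fold change. A further 41 others, COP-like Gad2 among them, moved by more but kept their direction. The ratios of Slc17a6 and Slc17a7 between libraries held under all alternatives run. No paired analysis was possible because 1 library with counts stood for each genotype, which also left no replicate to leave out.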
